A study of Mus musculus with 8 samples.

Results

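The germline and meiosis genes Stra8, Rec8, Dazl, Ddx4, Mael, Sycp1, Sycp3, Syce1, Tex19.1 and Tex101 were followed in mouse embryonic stem (ES) cells before and after retinoic acid (RA). Members were taken by name, as the probes that are not controls and carry one of these gene names in the scanner output. This gave 11 probes of 10 genes, out of 55681 probes and 31796 names of genes or transcripts, with a second probe for Sycp3. E14Tg2A.4, a line of ES cells, was left untreated (4 arrays) or given 1 µM all trans RA for 3 days in medium lacking leukemia inhibitory factor, with which the study starts differentiation towards neurons (4 arrays). The replicates were biological according to the submitters, the cells are of 1 line in culture with no gonadal cells around them, and RA and the removal of leukemia inhibitory factor cannot be told apart. Total RNA was labelled with Cy3 and each sample hybridised to a 1-colour Agilent whole genome array.

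Meiosis is the pair of divisions by which germ cells halve their chromosome set. In the embryonic ovary and the postnatal testis RA switches on Stra8, after which chromosomes are held by cohesin rings that carry Rec8 and are zipped together by the synaptonemal complex, whose parts include Sycp1, Sycp3 and Syce1. Dazl, Ddx4 and Mael act on RNA in germ cells, partly in the granules where transposons are silenced by piRNAs. In somatic tissue most such genes are shut by DNA methylation or by repressor complexes that bind E-box and E2F motifs, and ES cells, which resemble the early embryo, transcribe a number of them.

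After RA 4 of the 10 genes were higher (Stra8, Rec8, Ddx4 and Mael), 5 were lower (Sycp1, Sycp3, Syce1, Tex19.1 and Tex101), and Dazl did not pass the test. The log2 fold changes (RA-treated minus untreated) ran from -3.56 for Tex101 to 3.12 for Rec8. A gene was called when its adjusted p in limma was under 0.05 and its fold change above 1.5, and by this rule 14.9% of all genes on the array were called higher and 21.4% lower. Among the 20473 genes well above background on all arrays of at least 1 condition, as every member was, these shares were 21.4% and 28.2%. The median log2 fold change of the 10 members was -0.78, against -0.27 for all genes. Every level below is a log2 signal relative to the 75th percentile of its array, and all 11 probes were well above background and unsaturated on all 8 arrays.

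**Figure D1:**
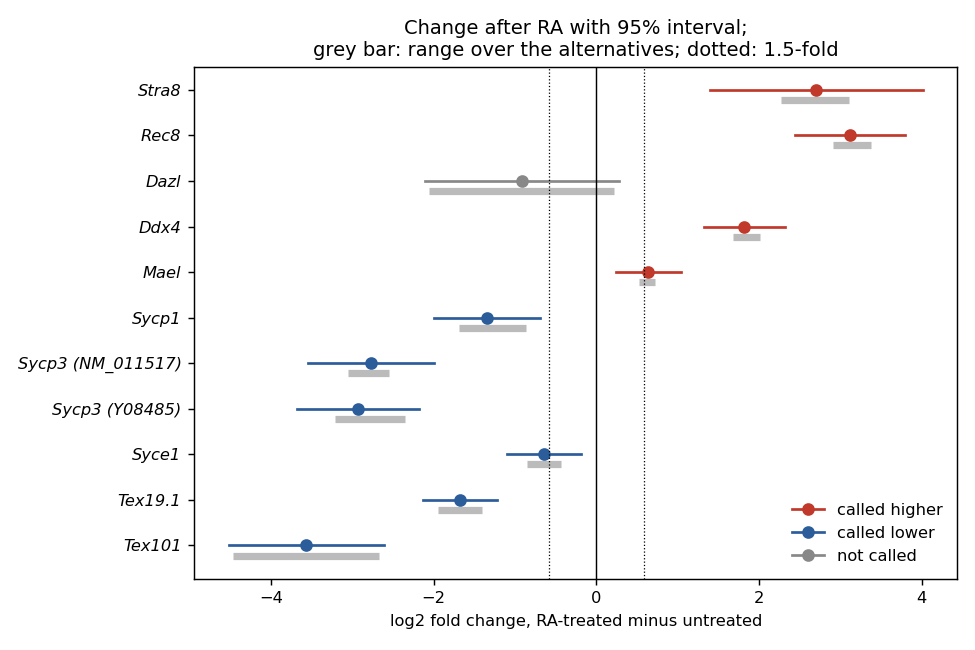
Log2 fold change of each probe (RA-treated minus untreated, x axis) with its 95% interval from limma, by gene (y axis). Red points were called higher, blue points lower and the grey point was not called, and the grey bars give the range over the alternative ways of processing. The bar of Dazl crosses 0, and those of Mael and Syce1 cross the dotted lines at 1.5-fold.

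RNA quality was looked at here only through signal over background, and the control spots were not used for it. Between 56.7% and 62.7% of the spots that are not controls were well above background on each array. The 8 arrays lay on 2 slides, each with 2 untreated and 2 RA-treated samples. Known RA response genes were called higher in 9 of 9 cases (median log2 fold change 4.20) and ES cell markers were called lower in 10 of 10 (median -4.71). Because each sample is a bulk extract, a change in the number of cells that transcribe a gene and a change in the RNA per cell cannot be told apart. Late spermatogenic genes, which would mark mature germ cells, were not well above background on any of the 8 arrays in 6 of 15 cases. Of the defining markers Tnp2 and Acrv1 were among these 6, whereas Prm1 was above background on 4 untreated and 0 RA-treated arrays, Prm2 on 3 and 4, and Tnp1 on 4 and 3. The summed signal of the list, in multiples of the 75th percentile of the array, ran from 3.21 to 6.33 in untreated and from 2.10 to 2.45 in RA-treated samples, and without Ybx2 from 1.20 to 1.56 and from 0.824 to 1.09. For the ES cell markers the sum ran from 524 to 740 and from 47.0 to 128. A sum weights each gene by the brightness of its probe, so it can be read between arrays and not between lists, and the part of either list in the members' changes was not tested.

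Stretches of promoter are printed for the members in which a searched motif was found, so that the called genes can be set beside their sequence. All 10 genes matched 1 RefSeq promoter window on GRCm38.p6, which was searched on both strands for the E-box CACGTG, the E2F-like motif GCGGGAA, the half-site AGGTCA of RA receptors, and direct repeats of that half-site with 2 or 5 bases of any kind between them. The E-box was found in 4 of the 10 windows, against 7.15% of all 32851 windows of the same length, and its holders were Ddx4 and Mael, which rose, and Sycp1 and Sycp3, which fell. GCGGGAA lay in the windows of Ddx4 and Sycp3 (4.6% of all windows) and AGGTCA in those of Stra8 and Sycp3 (16.3%). The windows of the members hold 10 to 38 CpG dinucleotides against a median of 7 over all windows, and both CACGTG and GCGGGAA contain a CpG. Among the 14281 windows with at least 10 CpG the shares were 10.9% for CACGTG, 9.2% for GCGGGAA and 10.5% for AGGTCA. Neither direct repeat was found in a member's window (0.00913% of all windows each). The bases upstream of the start are given 5′ to 3′ on the strand of the gene, with matches in capitals and no overlap between the motifs. Stra8 is shown from chr6:34920698-34920947 (plus strand), Ddx4 from chr13:112652311-112652560 (minus strand), Mael from chr1:166238745-166238994 (minus strand), Sycp1 from chr3:102936101-102936350 (minus strand) and Sycp3 from chr10:88459337-88459586 (plus strand). A match describes the letters only and is no evidence of binding.
Stra8: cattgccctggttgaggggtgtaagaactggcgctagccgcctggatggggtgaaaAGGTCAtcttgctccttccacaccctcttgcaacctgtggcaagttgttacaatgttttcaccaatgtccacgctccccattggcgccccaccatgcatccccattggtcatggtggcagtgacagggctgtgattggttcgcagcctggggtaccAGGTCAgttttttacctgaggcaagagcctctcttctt
Ddx4: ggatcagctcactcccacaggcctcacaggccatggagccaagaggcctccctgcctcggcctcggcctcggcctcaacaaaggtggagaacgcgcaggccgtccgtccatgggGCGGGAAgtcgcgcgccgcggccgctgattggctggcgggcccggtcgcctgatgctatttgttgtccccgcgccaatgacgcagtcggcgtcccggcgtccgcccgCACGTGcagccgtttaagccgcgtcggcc
Mael: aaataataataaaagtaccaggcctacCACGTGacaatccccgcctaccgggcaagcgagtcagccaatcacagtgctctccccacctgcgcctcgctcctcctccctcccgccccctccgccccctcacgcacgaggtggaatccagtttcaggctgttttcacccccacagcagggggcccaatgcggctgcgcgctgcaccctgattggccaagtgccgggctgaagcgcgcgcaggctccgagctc
Sycp1: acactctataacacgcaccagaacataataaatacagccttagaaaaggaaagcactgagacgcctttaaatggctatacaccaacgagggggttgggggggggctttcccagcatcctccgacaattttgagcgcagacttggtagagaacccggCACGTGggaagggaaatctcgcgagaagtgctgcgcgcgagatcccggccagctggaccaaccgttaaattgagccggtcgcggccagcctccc
Sycp3: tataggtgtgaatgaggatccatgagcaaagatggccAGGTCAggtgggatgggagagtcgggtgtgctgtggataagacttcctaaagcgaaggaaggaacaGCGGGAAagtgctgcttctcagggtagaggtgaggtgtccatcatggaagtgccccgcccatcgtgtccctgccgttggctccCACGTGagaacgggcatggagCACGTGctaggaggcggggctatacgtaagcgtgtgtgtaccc

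Stra8, the RA-induced gene needed for entry into meiosis, rose 6.52-fold. The probe (NM_009292, mm9 chr6:34889237-34889296) read 1.23, 1.24, 0.89 and 1.42 in untreated replicates 1 to 4 and 2.70, 2.79, 5.19 and 4.92 in RA-treated replicates 1 to 4. All RA-treated arrays lay above all untreated arrays, and the RA-treated arrays split into a low pair (replicates 1 and 2) and a high pair (replicates 3 and 4). The means were 1.19 ± 0.22 and 3.90 ± 1.34 (SD, n = 4), and the log2 fold change was 2.71 ± 0.58 (SE; adjusted p = 0.00553, limma). It was 2.75 on slide 1 and 2.66 on slide 2, where with 2 arrays a condition the adjusted p was 0.0559 and 0.0618. In the window printed above, AGGTCA starts 194 and 38 bases upstream of the start.

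Rec8, the meiotic subunit that closes the cohesin ring, rose 8.71-fold. Its levels were 0.21, 0.88, 0.84 and 0.47 on the untreated arrays and 3.64, 2.95, 4.23 and 4.09 after RA (NM_020002, mm9 chr14:56244160-56244219). The groups did not overlap, and replicates 3 and 4 were again the highest of the RA-treated arrays. This is a log2 fold change of 3.12 ± 0.30 (SE; adjusted p = 6.53e-05, limma), with 3.34 on slide 1 and 2.91 on slide 2, and the call held under all 19 alternatives.

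The RA response genes had the same order of the RA-treated arrays as Stra8 and Rec8. Rarb, a receptor of RA, read 2.05, 1.26, 3.24 and 2.85 on RA-treated replicates 1 to 4, and Cyp26a1, an enzyme that degrades RA, read 0.82, 0.94, 3.08 and 1.92. In all 9 listed RA response genes replicates 3 and 4 lay above replicates 1 and 2, as they did in 21.9% of the 19392 genes well above background on all RA-treated arrays. Of the 10 ES cell markers, 8 had replicates 3 and 4 below replicates 1 and 2 (25.6% of the same genes). Stra8 and Rec8 were the 2 of the 10 members with the first order, a share near that of all genes, and 3 members (Mael, Sycp1 and Sycp3) had the opposite order. These orders were noticed after the values were seen. It did not follow the slide, since slide 1 held RA-treated replicates 1 and 4 and slide 2 held replicates 2 and 3, and the part of the extent of the RA response in the spread of Stra8 was not tested.

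**Figure D2:**
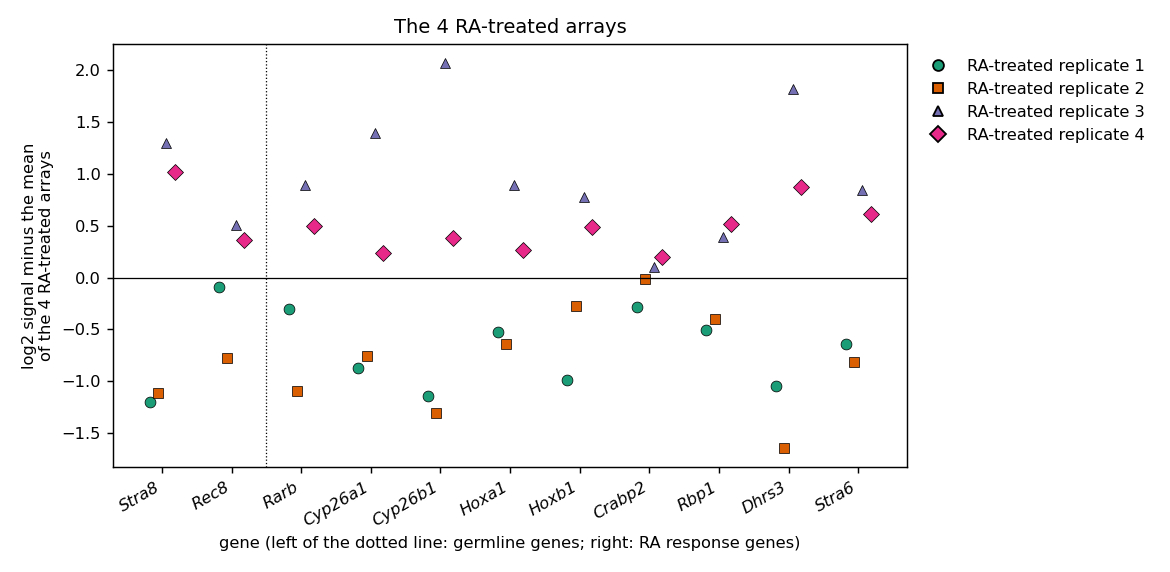
Log2 signal of each RA-treated array minus the mean of the 4 RA-treated arrays (y axis) for Stra8, Rec8 and the 9 RA response genes (x axis), 1 marker for each replicate. In every gene shown, replicates 3 and 4 lie above replicates 1 and 2.

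Dazl, an RNA-binding protein that controls translation in germ cells, did not pass the test. It read -0.65, -1.53, 0.60 and -0.89 on the untreated arrays and -1.38, -1.08, -0.90 and -2.77 after RA (NM_010021, mm9 chr17:50418923-50418982). The groups overlapped, with untreated replicate 3 the highest and RA-treated replicate 4 the lowest of the 8 arrays. The log2 fold change was -0.92 ± 0.52 (SE), with a 95% interval from -2.11 to 0.27 (adjusted p = 0.198, limma), so that a change of 1.5-fold in the downward direction lies within the interval. On slide 1 it was -2.05 and on slide 2 it was 0.22.

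Ddx4, the Vasa helicase that marks germ granules, rose 3.53-fold. On the untreated arrays it read -0.11, -0.32, 0.66 and 0.13, and after RA 2.13, 1.79, 1.79 and 1.94 (NM_010029, mm9 chr13:113388616-113388675). The RA-treated arrays lay close together (1.91 ± 0.16, SD, n = 4) and above all untreated arrays (0.09 ± 0.42). Its log2 fold change was 1.82 ± 0.22 (SE; adjusted p = 0.00024, limma), with 1.76 on slide 1 and 1.88 on slide 2, and the call held under all 19 alternatives. Its E-box starts 29 bases and its GCGGGAA 136 bases upstream of the start.

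Mael, a germ granule protein of the piRNA pathway, rose by less, 1.56-fold. Untreated arrays read 1.82, 1.60, 1.91 and 1.61 and RA-treated arrays 2.71, 2.50, 2.16 and 2.14 (NM_175296, mm9 chr1:168131583-168131642). The groups did not overlap, but the lowest RA-treated array was only just above the highest untreated array. On the log2 scale the change was 0.64 ± 0.17 (SE; adjusted p = 0.0184, limma). The call was lost under 6 of the 19 alternatives, among them leaving out RA-treated replicate 1 (adjusted p = 0.0556) or RA-treated replicate 2 (0.0502). Over the alternatives the log2 fold change ran from 0.53 to 0.72 and the adjusted p from 0.0062 to 0.943. That range of adjusted p includes the test against a change of 1.5-fold, which asks for more than a test against no change. Within the slides the log2 fold change was 0.56 and 0.72 (adjusted p = 0.293 on slide 1 and 0.16 on slide 2, limma).

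The 3 members that belong to the synaptonemal complex were called lower, as were 28.2% of all genes above background, and the call of Syce1 was lost under 13 of the 19 alternatives. Of the 4 other listed genes of the complex Tex12 rose, Syce3 fell, and Sycp2 and Syce2 were not called. Sycp1, the transverse filament, fell 2.54-fold, Sycp3, of the axial and lateral elements, fell 6.81-fold, and Syce1, of the central element, fell 1.57-fold. Sycp1 read -1.21, -1.90, -1.36 and -2.42 on the untreated arrays and -2.68, -2.98, -3.33 and -3.27 after RA (NM_011516, mm9 chr3:102622573-102622632). Untreated replicate 4 came close to the RA-treated arrays without overlap. The log2 fold change was -1.34 ± 0.28 (SE; adjusted p = 0.00541, limma), with -1.69 on slide 1 and -0.997 on slide 2, where the call was lost, as it was when the test was made against a change of 1.5-fold. It was smallest with the authors' processed values, at -0.87, and there the call held (adjusted p = 0.00577, limma).

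Sycp3 was measured by 2 probes, and both fell. The first (NM_011517, mm9 chr10:87935675-87935734) read 2.44, 1.37, 2.36 and 2.76 before RA and -0.30, 0.03, -0.99 and -0.88 after it. The second (Y08485, for which the file gives mm9 chr10:87932348-87935438) read 0.22, -0.98, 0.13 and 0.07 before and -2.57, -2.79, -3.67 and -3.25 after. On both probes untreated replicate 2 was the lowest untreated array and still lay above all RA-treated arrays. The log2 fold changes were -2.77 ± 0.34 (SE; adjusted p = 0.000268, limma) and -2.93 ± 0.33 (adjusted p = 0.000168), with -2.99 and -3.08 on slide 1 and -2.54 and -2.78 on slide 2. The Sycp3 window printed above holds 2 E-boxes, which start 64 and 43 bases upstream of the start, with GCGGGAA 147 bases and AGGTCA 213 bases upstream.

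Syce1 was the call that depended most on the processing among the members. It read 2.43, 2.68, 3.11 and 2.22 on the untreated arrays and 2.00, 1.98, 2.04 and 1.83 after RA (NM_001143765, mm9 chr7:147963253-147963312). The RA-treated arrays were nearly level, and below the untreated arrays, which were spread more widely. The log2 fold change was -0.65 ± 0.20 (SE; adjusted p = 0.0320, limma), and the call was lost under 13 of the 19 alternatives, among them quantile normalization (adjusted p = 0.0869) and the authors' processed values (0.0623). Over the alternatives the log2 fold change ran from -0.85 to -0.44 (on slide 1 and slide 2) and the adjusted p from 0.00889 to 0.953. The upper end again includes the test against a change of 1.5-fold, and on slide 2 the adjusted p was 0.399 (limma).

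Tex19.1, which restrains transposons in germ cells and is also transcribed in pluripotent cells, fell 3.20-fold. It read 5.79, 5.67, 5.88 and 5.49 on the untreated arrays and 4.26, 4.13, 4.22 and 3.52 after RA (NM_028602, mm9 chr11:121009485-121009544). The groups were well apart, with RA-treated replicate 4 the lowest. Its log2 fold change was -1.68 ± 0.20 (SE; adjusted p = 0.000216, limma), with -1.94 on slide 1 and -1.41 on slide 2. A near copy, Tex19.2, exists in the mouse, and signal from it on this probe was not tested.

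Tex101, a glycoprotein of the germ cell surface needed for sperm to migrate into the oviduct, fell the most of the members, 11.8-fold. Untreated arrays read 0.22, 0.20, 0.96 and 0.38 and RA-treated arrays -4.02, -2.67, -2.08 and -3.71 (NM_019981, mm9 chr7:25453040-25453099). All RA-treated arrays were far below the untreated arrays, and they were more spread among themselves. This gave a log2 fold change of -3.56 ± 0.42 (SE; adjusted p = 0.00021, limma), with -4.46 on slide 1 and -2.67 on slide 2. The calls of Sycp3, Tex19.1 and Tex101 held under all 19 alternatives.

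**Figure D3:**
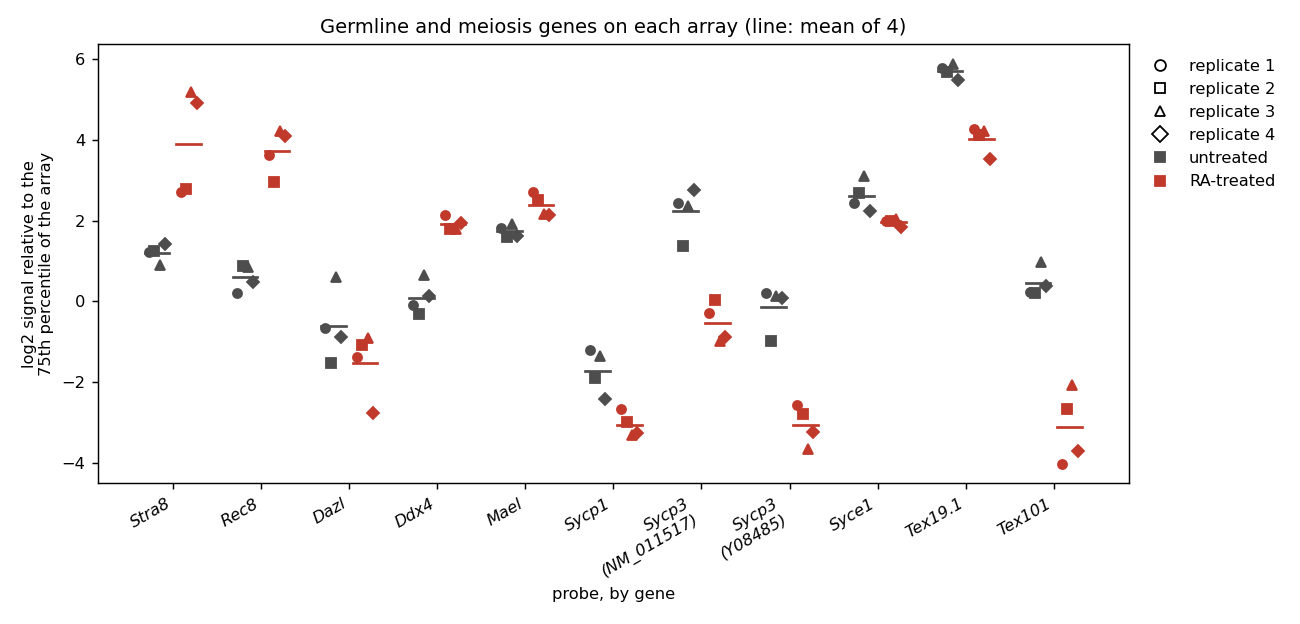
Log2 signal relative to the 75th percentile of the array (y axis) of the 11 probes (x axis) on each of the 4 untreated (grey) and 4 RA-treated (red) arrays, 1 marker shape for each replicate number, with lines at the means. RA-treated arrays lie above the untreated arrays in Stra8, Rec8, Ddx4 and Mael, below them in Sycp1, Sycp3, Syce1, Tex19.1 and Tex101, and overlap them in Dazl. Heights are comparable within a probe and not between probes.

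In 4 of the 10 genes all RA-treated arrays lay above all untreated arrays and in 5 all lay below, which held for 16.4% and 24.6% of all genes on the array. These shares include 8236 genes dim on all arrays, as no member was. The shares among genes with signal were not computed. The pattern of each called member over the 8 arrays was set beside those of 12400 genes with a named symbol and signal on all arrays. For Stra8 the most alike were BC048679 (Pearson r = 0.998), Agtr1a (0.995) and Abcg4 (0.985), and for Rec8 they were Smpd1, Ttc39c and Foxa1 (0.996 to 0.997). For Tex101 they were Omp, Galnt6 and Foxn4. These correlations are over 8 points that fall into 2 conditions and describe likeness only.

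Other genes of meiosis, of 32 listed, were called higher in 4 cases and lower in 15, with a median log2 fold change of -0.65. The largest changes in this list were those of Majin, which tethers telomeres to the nuclear envelope (-4.89, adjusted p = 2.78e-05; array name 1700123I01Rik), Hormad1, of the chromosome axis (-3.66, adjusted p = 5.27e-05), and Hsf2bp, a factor of meiotic recombination (-3.29, adjusted p = 3.38e-05, all limma). Majin was above background on 2 of the 4 RA-treated arrays. The list also holds 3 subunits of meiotic cohesin and 4 genes of the synaptonemal complex, grouped after their values were seen. Of the cohesin subunits Smc1b fell by 1.38 and Stag3 by 0.89 on the log2 scale (adjusted p = 0.000997 and 0.00845, limma), and Rad21l (array name Gm14160) was not well above background on any array and not called (0.69, adjusted p = 0.133). Of the synaptonemal complex, Tex12, of the central element, rose by 1.17 (adjusted p = 0.00591) and Syce3, of the same element, fell by 1.68 (adjusted p = 0.000208, array name 1700007E06Rik), while Sycp2 was not well above background on any array. Syce2, a partner of Syce1, read -7.78 on untreated replicate 2 against 3.44 to 4.28 on the other untreated arrays, and its log2 fold change was 2.13 (adjusted p = 0.489) with that array and -0.80 (adjusted p = 0.0318) without it.

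Among 22 other genes of the piRNA pathway and germ granules 5 were called higher and 11 lower (median -0.65). Gtsf1 (-4.88, adjusted p = 1.79e-05) and Tdrd12 (-4.86, adjusted p = 7.35e-05) had the largest changes among those with signal on all arrays. Piwil1, a PIWI protein that binds piRNAs, was not well above background on any RA-treated array. It was at least 4.73-fold lower there (adjusted p = 4.72e-05, limma), so it has no exact rank. Ddx4 was not alone in rising, since Tdrd7, a Tudor protein of the granules named after its value was seen, rose by 3.15 on the log2 scale (adjusted p = 6.12e-05).

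Primordial germ cell genes were called higher in 3 and lower in 14 of 20 cases (median -1.64). Dppa3 (-6.00, adjusted p = 4.74e-05), Prdm14 (-5.17, adjusted p = 6.14e-05) and Ifitm1 (-3.06, adjusted p = 0.000116, all limma) had the largest changes, and untreated ES cells are known to transcribe all 3. Of 14 oocyte genes 4 were higher and 6 lower (median -0.76), but 3 were higher and 2 lower with dim probes left out, and 2 and 2 with the authors' values. Zp3, of the zona pellucida, had the largest change in the list (-4.38, adjusted p = 3.57e-05). Zp1, also of the zona pellucida, was not well above background before RA and at least 2.72-fold higher after it (adjusted p = 8.42e-05), so it has no exact rank. Of the other defining oocyte markers Gdf9 fell by 1.09 on the log2 scale (adjusted p = 0.00829, limma). Bmp15 was called lower (adjusted p = 0.00197) but was above background on only 1 array, an untreated one, and Zp2 on none. Zar1, a maternal factor, rose by 2.34 on the log2 scale (adjusted p = 7.33e-05), with signal on 3 of the 4 untreated arrays. Of 15 late spermatogenic genes 1 was higher and 6 were lower (median -0.46), but 2 of the 6, Tnp2 and Akap4, were not well above background on any array, and 3 were lower when dim probes were left out, with normexp and with the authors' values. Acr, above background on all arrays, was not called (-0.46, adjusted p = 0.197). Among the lower genes was Prm1, a protamine of sperm chromatin, at least 6.66-fold lower and not well above background after RA (adjusted p = 0.00294, limma). Ldhc fell by 2.50 and Crem rose by 1.74 on the log2 scale (adjusted p = 0.000275 and 0.00011, limma).

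Genes of repressor complexes and of DNA methylation and its removal, which bear on whether germline genes are shut, were called higher in 5 and lower in 13 of 27 cases (median -0.54). The largest changes in the list were those of Tet1 (-3.45, adjusted p = 5.32e-05), Yaf2 (2.30, adjusted p = 6.42e-06) and Tet2 (-1.97, adjusted p = 0.00018, all limma). Tet1 and Tet2 are not repressors, since they oxidise methylated cytosine and so act against DNA methylation. Without them 5 genes were higher and 11 lower of 25. Genes of DNA methylation itself fell too, namely Dnmt3l (-1.97, adjusted p = 0.00102) and Dnmt3b (-1.84, adjusted p = 0.00325, both limma), while Dnmt1, Dnmt3a and Uhrf1 were not called. The net effect on DNA methylation was not tested. Yaf2 is a subunit of PRC1. Of 11 listed subunits of the E2F6 form of PRC1, which binds E-box and E2F motifs, 4 rose (E2f6, Yaf2, Rnf2 and Ring1), 5 fell (L3mbtl2, Mga, Max, Pcgf6 and Rybp) and Tfdp1 and Cbx3 were not called. These subunits were grouped after their values were seen, and the log2 fold changes ran from -1.58 for Rybp to 2.30 for Yaf2.

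**Figure D4:**
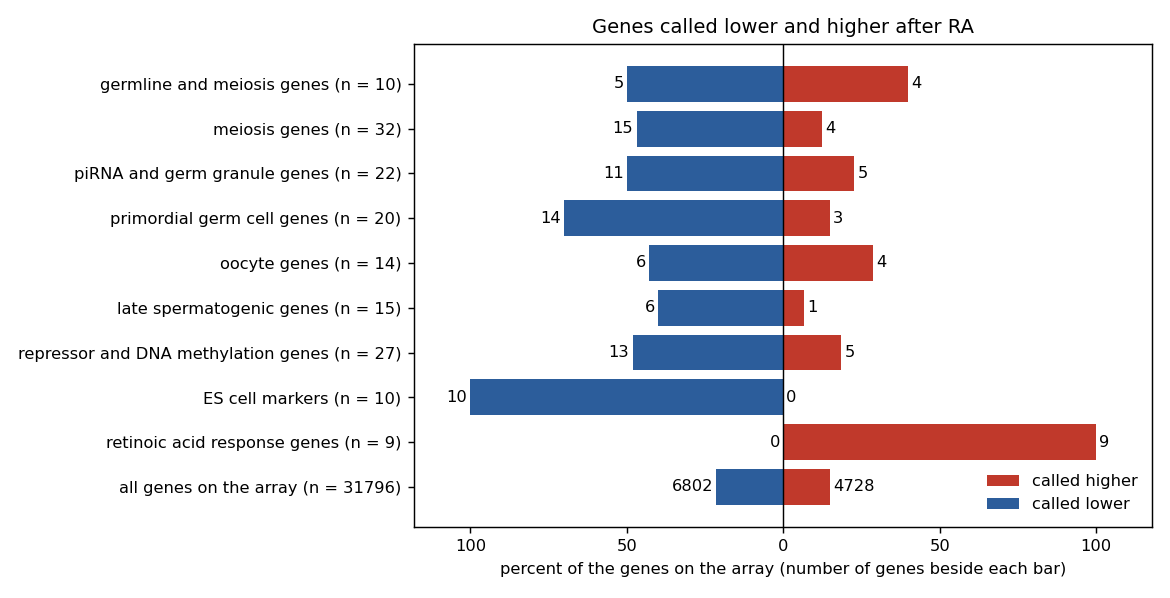
Percent of the genes of each list called lower (blue, to the left) and higher (red, to the right) after RA (x axis), with the number of genes beside each bar and, on the y axis, the number on the array. The germline and meiosis genes had 5 lower and 4 higher, the ES cell markers 10 lower and the RA response genes 9 higher.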

How the data were processed

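Arrays of 4 untreated and 4 RA-treated ES cell samples were analysed, grouped by the sample labels. Each array came as deposited by the authors from Agilent Feature Extraction (version 10.7.3.1, per the file headers), and its processed intensity is background-corrected and detrended within the array, with no normalization between arrays. The authors also deposited log2 values of the same spots, with a median of 6.89 on every array and a scale and centring that are not given in the sources used here (r with the scanner values 0.963 to 0.975). Log2 of the intensity minus the 75th percentile of each array was computed in R (version 4.3.3) over 59305 spots, leaving out 3671 control spots and 124 to 145 outlier spots an array, and spots of a probe were averaged. Feature names and mm9 positions are those of the scanner output, and the exon or UTR under a probe was not annotated here.

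The RA-treated arrays were set against the untreated arrays in limma (version 3.58.1; lmFit, then eBayes) without covariates, with Benjamini-Hochberg adjustment over 55681 probes and the thresholds of the study (FDR 0.05, fold change above 1.5). Where a gene has several probes, the one of highest mean level stands for it. In data simulated from these arrays 140 of 200 probes changed by 2 on the log2 scale were recovered, and 7 unchanged probes were called. Far more probes were called in the real comparison, which alters the adjustment, so this recovery is not that of the fit reported here. Arrays of one condition correlated at 0.979 to 0.994 and none was a copy of another. The deviations of same-numbered untreated and RA-treated arrays correlated at r = 0.186, 0.189, 0.104 and 0.152 for replicates 1 to 4 (27504 probes). Between different numbers r was at most 0.142, which is above the value of replicate 3. The arrays of replicate 1 share a slide, as do those of replicate 2, so for these pairing and slide cannot be told apart. The replicate number was also fitted as a block, which takes same-numbered arrays as pairs. This pairing comes from the data and not from the labels, and every printed value is from the fit without the block unless said otherwise.

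The members and the gene lists were chosen with earlier results of these data known. The text names all members, at most the 3 genes of a list with the largest called change and signal on all arrays of a condition, and the 3 genes most alike to a member. Further genes are named outside this rule. They are the defining markers of late spermatogenic cells and of oocytes, parts of meiotic cohesin, the synaptonemal complex and PRC1, genes of DNA methylation, and Tdrd7, Ybx2, Akap4 and Acr. All except the markers were chosen after their values were seen. Some genes are in 2 lists. A probe dim on all arrays of a condition is given as a bound, the mean of the bright arrays against the higher of its own signal and the lowest signal well above background on each dim array. Alternatives were another scaling, background correction, filter on dim probes, threshold or probe choice, the authors' log2 values, slide or replicate as a block, each slide alone, and leaving out each array.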

Additional observations from a re-analysis of the deposited data

Results flagged for a closer look

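The second Sycp3 probe (Y08485) read -0.98 on untreated replicate 2, far from the 0.07 to 0.22 of the other untreated arrays. It was 1 of 22 groups of 4 arrays examined, and chance gives about 1 in 20. The first Sycp3 probe was also lowest on that array among the untreated arrays, at 1.37, and the log2 fold change of the second probe ran from -3.21 to -2.73 when each array was left out in turn.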

How the results depend on the processing

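Rec8, Ddx4, Sycp3, Tex19.1 and Tex101 kept their calls under all 19 alternatives, Stra8 and Sycp1 under 17, Mael under 13 and Syce1 under 6, and no called member changed direction. Dazl, which was not called, reversed within slide 2 (0.22). With 2 arrays a condition, members called higher numbered 2 within slide 1 and 2 within slide 2, and members called lower 3 within slide 2. Tested against a change of 1.5-fold, 3 members were called lower. Leaving out each array in turn gave 3 to 4 members higher and 4 to 5 lower.

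Of all probes 7196 were called higher and 12044 lower. These counts were 4206 and 6348 within slide 1, 3964 and 5453 within slide 2, 4171 and 5728 when tested against 1.5-fold, and 6549 to 7281 and 10601 to 12676 when each array was left out. The count of lower probes was 6603 with normexp and quantile normalization and 6583 with the authors' values. Of the called probes 37.4% were higher on the 75th percentile scale and 48.4% after quantile normalization, which moved the median change over all probes from -0.28 to -0.0026 on the log2 scale.

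With the replicate number as a block 7223 probes were higher and 12161 lower, and the pairing changed no member's call. Signal over background limits what dim probes can show, and 16662 of the probes were dim on all arrays. The cause of these differences was not tested. Over the alternatives the counts higher and lower ran from 1 to 5 and 9 to 17 for meiosis genes (4 and 15 as reported), 3 to 6 and 7 to 11 for piRNA genes (5 and 11), 1 to 3 and 10 to 15 for primordial germ cell genes (3 and 14), 2 to 4 and 2 to 6 for oocyte genes (4 and 6), and 1 to 6 and 6 to 15 for repressor and DNA methylation genes (5 and 13). For late spermatogenic genes the lower count ran from 3 to 7 (6).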
